A study of Mus musculus with 12 samples.

Results

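The spinal cords compared here came from mice that had no cord injury, only the opening of the vertebral bone over the cord (laminectomy, the sham operation), and that either lacked EphA4 or were wild-type. The comparison holds 6 of the 12 arrays of the series, 3 from EphA4 knockout and 3 from wild-type mice. The other 6, from cords with a lumbar hemisection, were set beside it only where stated. A gene's level was the mean log2 value of the probesets that name that gene alone, which gave 15808 genes. Those with a mean level over the 6 sham arrays above the median of all genes, 5.58 on the log2 scale, were kept as 7904 genes well clear of the signal floor, and the other 7904 were counted apart as dim genes.

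Each array was hybridised with RNA from 1 mouse, an Affymetrix Mouse Exon 1.0 ST array whose probesets read single exons. Mice were on a C57/BL6 background, carried a constitutive knockout or were wild-type littermates, and were killed 4 days after surgery, when 6 mm of the left side of the cord was taken. By the labels, the EphA4 knockout mice, replicates 1 to 3, were 12, 9 and 10 weeks old, female, male and male, and their RNA came from extraction batches 3, 1 and 2. The wild-type mice were all 10 weeks old, were male, male and female, and came from batches 1, 2 and 2. The injured EphA4 knockout mice were all 10 weeks old, were male, male and female, and came from batches 2, 1 and 4. The injured wild-type mice were 10, 14.5 and 10 weeks old, were male, female and male, and came from batches 2, 1 and 1. EphA4 was missing in every cell of these animals from before birth, so that the comparison cannot tell a difference in the adult cord apart from one laid down in development.

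EphA4 is a receptor tyrosine kinase on the surface of neurons and glia that binds ephrins of both the A and the B class on neighbouring cells. During development it turns growing axons away from ephrin-bearing territory, and it is known for keeping corticospinal and spinal interneuron axons on their own side of the midline; mice without it walk with a hopping gait. The grey matter in which these axons end holds motor neurons, inhibitory neurons that use glycine and GABA, excitatory neurons that use glutamate, and many peptide-releasing neurons of the dorsal horn, where signals from skin and viscera arrive.

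Before the genotypes were compared, the arrays were set against their labels. Sham EphA4 knockout replicate 2 is labelled male, but its Y-linked genes were as low as in females, with Eif2s3y at 3.25 and Kdm5d at 3.39, against 3.21 to 3.49 for Eif2s3y wherever the label was female and 7.21 to 8.15 wherever else it was male. By these genes EphA4 knockout replicates 1 and 2 and wild-type replicate 3 were at the female level. Numbers of genes, and the values of some genes and lists, are therefore also given without EphA4 knockout replicate 2. All other values include it. The arrays also differed in spread. The interquartile range of probeset values was 3.57, 3.63 and 3.50 log2 units in the EphA4 knockout arrays and 3.45, 3.57 and 3.45 in the wild-type arrays. Olfactory receptor genes, 830 genes which stand for the signal floor in this tissue, averaged 3.39, 3.29 and 3.42 in the EphA4 knockout arrays and 3.56, 3.43 and 3.58 in the wild-type arrays. Of the markers of the main cell types, Snap25 (neurons), Aqp4 (astrocytes), Mbp (myelin) and P2ry12 (microglia) lay above the median level of all genes, while some other members of the neuronal and microglial lists were dim. Markers of sensory ganglia (Scn10a, Scn11a and Avil among 6 measured) were not above the median in any case, with a mean of 3.57, 3.57 and 3.76 in EphA4 knockout and 3.74, 3.58 and 3.65 in wild-type arrays.

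Epha4 itself was read first. Its level was 5.16, 5.19 and 5.15 in the sham EphA4 knockout arrays, against 6.66, 6.81 and 6.52 in the sham wild-type arrays. The groups did not overlap, and all 18 probesets of the gene were lower in the knockout, by 0.59 to 3.46 on the log2 scale. Epha4 thus fell 2.83-fold, a log2 difference of −1.50 (SE 0.10, limma adjusted p = 0.00232), and it was the only gene of the 15808 with an adjusted p under 0.05. Which exons the knockout allele removes was not used here. None of the other 5 Eph receptors above the median was called, and their differences ran from −0.04 (Ephb1) to 0.19 (Epha6). Epha5, which shares ephrin-A ligands with EphA4, had 7.21, 7.07 and 7.08 in EphA4 knockout arrays and 7.02, 6.92 and 7.07 in wild-type arrays, a difference of 0.11 (SE 0.10). Of the ephrins, Efnb3, the midline ligand of EphA4, had 7.46, 7.73 and 7.65 in EphA4 knockout arrays, against 7.72, 7.99 and 7.99 in wild-type arrays. These values overlapped, and the difference of −0.29 (SE 0.12) did not pass (limma adjusted p = 0.773).

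Beyond Epha4, few genes met the thresholds in sham cords. A gene was called where its unadjusted limma p was under 0.01 and its fold change at least 1.2, the thresholds of the study. Among the 7904 genes above the median, 37 were called higher (0.468%) and 13 lower (0.164%) in the EphA4 knockout. An unadjusted p under 0.01 was met by the same number of genes, 50, where chance alone would give 79.0. At an unadjusted p under 0.05, 239 were higher (3.02%) and 99 lower (1.25%), 338 in all against 395 by chance. All 3 EphA4 knockout arrays lay above all 3 wild-type arrays in 619 genes (7.83%) and below them in 234 (2.96%). The differences were small beside the spread between mice: 35 genes differed by at least 1.5-fold and 4 by at least 2-fold, whether called or not, and the median SD within a group was 0.12. After Epha4 the smallest adjusted p was 0.123, for Wdfy1. Without EphA4 knockout replicate 2, 22 genes were called higher and 24 lower, and 20 of the 50 calls stood. Extraction batch as a fixed term leaves out EphA4 knockout replicate 1, the only array of its batch. The calls were then 29 higher and 7 lower, and 17 of the 50 calls stood. Within batch 1 and within batch 2 each of the 50 genes had the sign of its call. Those arrays had entered the call, and in 48 of the 50 genes the groups did not overlap. That fixed the sign in advance, so the signs say nothing about batch.

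Dim genes leaned the other way. Of 7904, 22 were called higher (0.278%) and 141 lower (1.78%), and 72 of the 141 were olfactory, vomeronasal or other chemosensory receptors, a class with 953 measured dim genes. The median difference was 0.03 for genes above the median level, 61.2% of which lay above 0, and −0.06 for dim genes, of which 33.7% did. This opposite lean was seen beside the lower floor of the EphA4 knockout arrays. Their spread was wider than in wild-type replicates 1 and 3 but overlapped that of wild-type replicate 2. With the arrays centred on their medians the split among genes above the median was 29 higher and 22 lower. Among dim genes it was then 18 higher and 155 lower. With quantiles normalized again it was 30 and 25 above the median, and 37 and 109 among dim genes. The part of this lean in the calls was not tested further. The receptor Vmn1r148, read by 1 probeset, had 3.03, 2.87 and 3.54 in EphA4 knockout arrays and 4.62, 3.90 and 4.69 in wild-type arrays. Vmn1r10 (−0.92), Olfr828 (−0.90) and the unannotated gene BC024063 (1.27) were the other dim genes of the largest change beside Irf7, and each was read by 1 probeset.

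**Figure D1:**
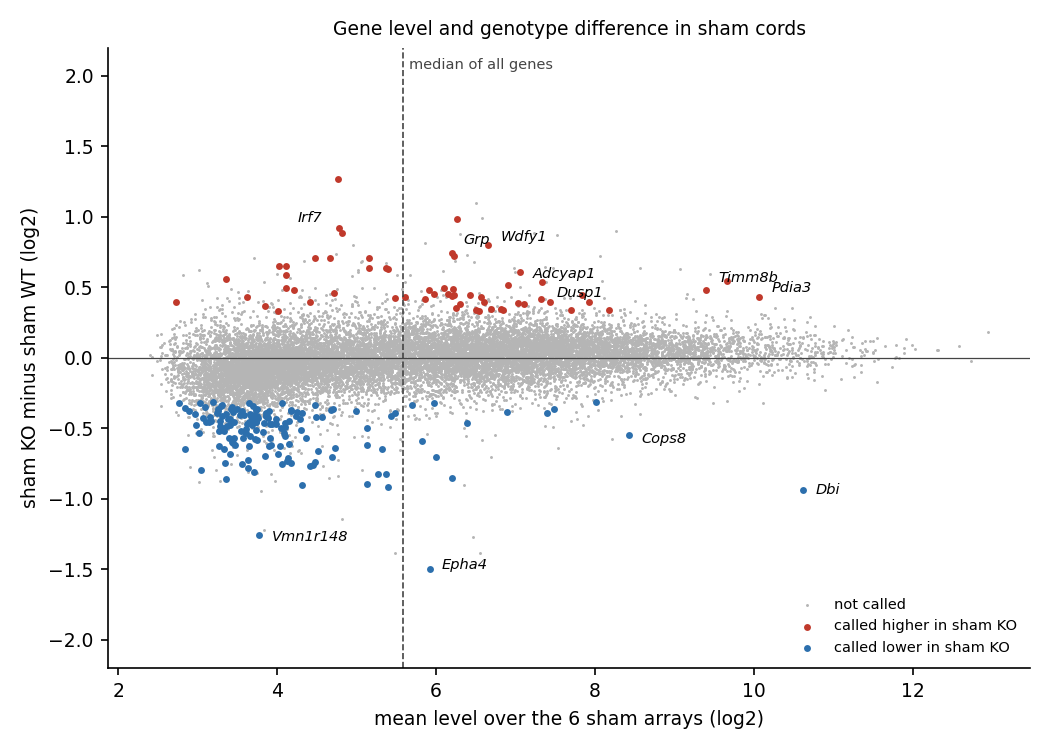
Mean level of each of the 15808 genes over the 6 sham arrays (x axis, log2) and its difference, sham EphA4 knockout minus sham wild-type (y axis, log2). Red points were called higher and blue points lower; right of the dashed median line are 37 red and 13 blue points, with Epha4 lowest at −1.50, and left of it 22 red and 141 blue.

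The called genes included several of neuronal signalling, among them neuropeptides, short secreted transmitters that dorsal horn neurons store in dense-core vesicles. Grp, the gastrin-releasing peptide of dorsal horn itch circuits, had 6.16, 6.59 and 6.99 in sham EphA4 knockout arrays, against 5.85, 5.75 and 5.89 in sham wild-type arrays. The groups stood apart and the gene rose 1.68-fold, by 0.75 (SE 0.18, limma adjusted p = 0.599); without EphA4 knockout replicate 2 the difference was 0.74. Adcyap1, which encodes the peptide PACAP, had 7.05, 7.66 and 7.37 in EphA4 knockout arrays and 6.53, 6.90 and 6.82 in wild-type arrays. It rose by 0.61 (SE 0.16, limma adjusted p = 0.633), with all 8 probesets higher, and by 0.46 without replicate 2, at an unadjusted p that no longer met the threshold.

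Of 18 neuropeptide genes measured, 13 lay above the median level. This list, as the others, was chosen with earlier results of these data known, so its shares describe the list and test nothing. All 13 had a difference above 0, beside 61.2% of all genes above the median. Of the 13, 2 were called higher (0.468% of all genes above the median) and none lower, 8 were higher at an unadjusted p under 0.05 (3.02%), and in 5 the groups did not overlap (7.83%). Their median difference was 0.35, beside 0.03 for all genes above the median. Crh, corticotropin-releasing hormone, had 6.08, 7.11 and 7.02 in EphA4 knockout arrays and 5.28, 6.05 and 6.24 in wild-type arrays, the largest difference of the list (0.88, SE 0.31), but with overlapping groups and no call. Npy, neuropeptide Y, an inhibitory peptide of dorsal horn interneurons, had 7.79, 7.83 and 7.85 in EphA4 knockout arrays, against 7.22, 7.19 and 7.77 in wild-type arrays. The difference of 0.43 (SE 0.15) rested on wild-type replicates 1 and 2, since replicate 3 lay next to the EphA4 knockout arrays.

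The tachykinins are excitatory peptides. Tac1, the precursor of substance P, had 9.11, 9.55 and 9.65 in EphA4 knockout arrays and 8.82, 9.09 and 9.15 in wild-type arrays (0.42, SE 0.15). Tac2, the precursor of neurokinin B, had 7.36, 7.54 and 7.49 in EphA4 knockout arrays and 6.94, 7.20 and 7.23 in wild-type arrays (0.34, SE 0.11). Neither met the threshold, although for Tac2 the lowest EphA4 knockout array lay above the highest wild-type array. Tacr3, the receptor for neurokinin B, did: it had 6.35, 6.61 and 6.31 in EphA4 knockout arrays, against 6.02, 6.12 and 5.83 in wild-type arrays, and rose by 0.44 (SE 0.12, limma adjusted p = 0.655). All 9 of its probesets were higher.

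Sst, somatostatin, had 10.48, 10.79 and 10.69 in EphA4 knockout arrays and 10.16, 10.54 and 10.20 in wild-type arrays, where wild-type replicate 2 overlapped (0.35, SE 0.13). Penk, the enkephalin precursor, had 10.65, 10.94 and 10.77 in EphA4 knockout arrays, against 10.52, 10.52 and 10.56 in wild-type arrays (0.25, SE 0.10). Nmu, Npff, Nts, Cartpt and Cck differed by 0.21 to 0.41 with overlapping groups. Of the 5 dim members, Pnoc, the nociceptin precursor, had a difference of 0.36 and an unadjusted limma p of 0.0249, and Pdyn, Gal, Vip and Calcb ranged from −0.13 to 0.21. Crh, Npy, Sst and the members after them were picked out for this account with their values in view.

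By array, the 13 neuropeptide genes averaged 7.63, 8.0 and 7.96 in the sham EphA4 knockout and 7.28, 7.40 and 7.62 in the sham wild-type. EphA4 knockout replicate 1 thus stood level with wild-type replicate 3. The median difference was 0.62 within extraction batch 1 (EphA4 knockout replicate 2 and wild-type replicate 1) and 0.32 within batch 2, and lay between 0.30 and 0.48 when any 1 array was left out, at 0.30 without EphA4 knockout replicate 2. In such bulk samples more cells of a type and more RNA per cell cannot be told apart, nor can the share of dorsal grey matter in the piece. Genes that mark the dorsal horn, a list drawn up after values had been seen, gave a median of 0.24 over 7 members above the median level, 6 above 0, and of 0.15 over all 11 measured, 8 above 0. Tacr3 was called. Calb1 (0.32), Cbln2 (0.26), Trhr (0.24), Reln (0.17), Tacr1 (0.15), Gpr83 (0.12) and Rorb (0.08) were above 0, and Tlx3 (−0.03), Cbln1 (−0.13) and Lmx1b (−0.19) below it. Whether the dissected piece held more dorsal horn was not tested.

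**Figure D2:**
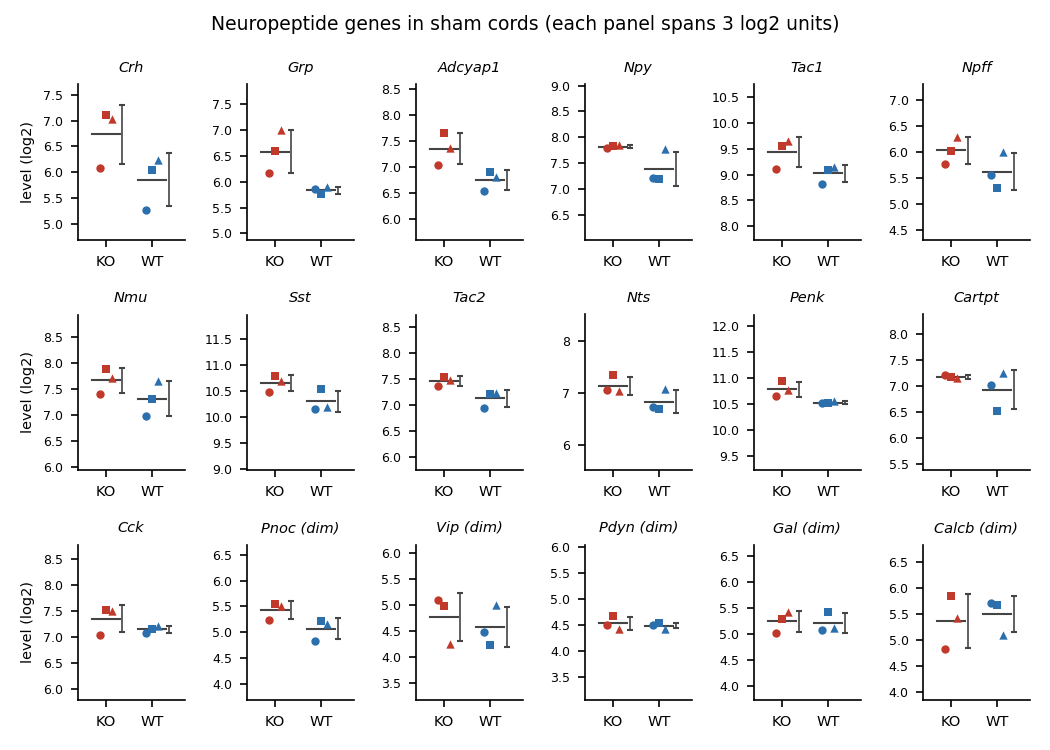
Level (y axis, log2) of the 18 neuropeptide genes in the 3 sham EphA4 knockout arrays (red, left) and the 3 sham wild-type arrays (blue, right), with circles, squares and triangles for replicates 1, 2 and 3, the mean as a line and the SD as a bar. In the 13 genes above the median level the EphA4 knockout mean was higher each time, by 0.21 for Cck up to 0.88 for Crh, and in 5 of them the groups did not overlap.

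Many neuropeptide genes are known targets of the transcription factor CREB, which binds the cAMP response element TGACGTCA or its shorter ends TGACG and CGTCA, so their start-site regions are shown, with those letters in capitals. RefSeq's table of promoters (GRCm38.p6), which gives 300 bases a promoter, 250 before the start and 50 after it, held 12 of the 18 neuropeptide genes. Crh and Grp, the members with the largest differences, were not among the 12. On either strand TGACGTCA occurred in 2 of the 12 genes (Sst and Cartpt) and in 1.79% of all 32851 promoters of the table. TGACG or CGTCA, which TGACGTCA contains, occurred in 9 of the 12 genes, the dim Vip and Gal among them, and in 20.8% of all promoters. A gene was counted if any of its promoters matched (14 promoters for the 12 genes), so the 2 measures differ in unit. These are matches of letters, not sites measured in this tissue. Sst, Tac1 and Adcyap1 are printed as members with matches. Npy and Tac2 are printed as members with similar differences and none (Pdyn was the third without one). Dusp1, a called gene induced by neuronal activity and growth factors, is printed because its promoter holds the whole element. It was the only called gene outside the neuropeptide list that was looked up, so it gives no share for called genes.
Sst (chr16:23890795-23891094, minus strand): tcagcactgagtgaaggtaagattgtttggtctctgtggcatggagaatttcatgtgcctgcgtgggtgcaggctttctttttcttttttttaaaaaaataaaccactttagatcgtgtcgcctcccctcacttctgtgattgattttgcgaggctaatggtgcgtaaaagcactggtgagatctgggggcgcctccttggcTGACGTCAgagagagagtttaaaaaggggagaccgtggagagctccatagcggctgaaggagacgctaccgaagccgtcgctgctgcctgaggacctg
Tac1 (chr6:7554811-7555110, plus strand): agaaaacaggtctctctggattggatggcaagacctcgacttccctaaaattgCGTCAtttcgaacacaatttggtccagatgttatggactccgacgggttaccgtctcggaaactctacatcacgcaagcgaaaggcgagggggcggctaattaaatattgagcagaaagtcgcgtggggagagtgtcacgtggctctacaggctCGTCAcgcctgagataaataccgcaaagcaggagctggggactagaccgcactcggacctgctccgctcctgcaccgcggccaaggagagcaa
Adcyap1 (chr17:93198767-93199066, plus strand): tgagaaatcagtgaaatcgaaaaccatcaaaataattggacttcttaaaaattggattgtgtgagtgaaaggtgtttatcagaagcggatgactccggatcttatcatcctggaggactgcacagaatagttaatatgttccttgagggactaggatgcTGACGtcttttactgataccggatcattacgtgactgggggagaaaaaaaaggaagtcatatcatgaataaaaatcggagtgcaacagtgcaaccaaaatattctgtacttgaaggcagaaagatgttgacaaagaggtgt
Npy (chr6:49822460-49822759, plus strand): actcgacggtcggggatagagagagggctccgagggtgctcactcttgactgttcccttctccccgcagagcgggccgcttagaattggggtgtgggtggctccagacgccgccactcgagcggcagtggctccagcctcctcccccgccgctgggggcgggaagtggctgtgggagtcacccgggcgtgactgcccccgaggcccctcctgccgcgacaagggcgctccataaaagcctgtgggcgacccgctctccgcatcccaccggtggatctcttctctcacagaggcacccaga
Tac2 (chr10:127724228-127724527, plus strand): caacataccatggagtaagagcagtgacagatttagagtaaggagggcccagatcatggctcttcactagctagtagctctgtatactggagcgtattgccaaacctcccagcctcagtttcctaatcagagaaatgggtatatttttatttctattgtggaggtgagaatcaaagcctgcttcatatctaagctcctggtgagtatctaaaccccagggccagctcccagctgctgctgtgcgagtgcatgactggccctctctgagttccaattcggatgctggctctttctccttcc
Dusp1 (chr17:26508423-26508722, minus strand): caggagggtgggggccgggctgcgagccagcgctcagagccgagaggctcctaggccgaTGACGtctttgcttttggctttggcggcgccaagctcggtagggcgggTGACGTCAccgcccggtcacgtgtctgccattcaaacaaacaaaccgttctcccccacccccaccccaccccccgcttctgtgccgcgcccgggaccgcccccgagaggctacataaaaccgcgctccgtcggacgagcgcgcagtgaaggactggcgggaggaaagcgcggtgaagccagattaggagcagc

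Dusp1, a phosphatase that switches off MAP kinases, had 7.69, 7.84 and 7.26 in sham EphA4 knockout arrays, against 7.05, 7.11 and 7.03 in sham wild-type arrays. It rose 1.45-fold (log2 difference 0.53, SE 0.15, limma adjusted p = 0.640), and the lowest EphA4 knockout array, replicate 3, was the closest to wild-type. Fos, an immediate early gene as Dusp1 is, was dim, with 5.40, 5.33 and 4.90 in EphA4 knockout arrays and 4.87, 4.72 and 4.74 in wild-type arrays (0.43, SE 0.14, not called). The other 2 of the 3 immediate early genes above the median, Jun (0.17) and Arc (0.13), overlapped between the genotypes. Dusp1 was the 1 called gene of the 18 measured, of which 15 were dim. Called higher were 0.468% of all genes above the median and 0.278% of all dim genes. Of the 18, 12 lay above 0 and 6 below it, among them Ier5 (−0.20) and Nr4a2 (−0.16).

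Inhibitory transmission was represented by 15 genes, all above the median level, of which 14 had a difference above 0 (61.2% of all genes above the median did), 2 were called higher (0.468% of all) and none lower. Both called genes encode glycine receptor subunits, the chloride channels through which spinal interneurons silence their targets. Other subunits of that receptor, Glra1 and Glrb, had far higher levels (10.36 and 9.78), differed by 0.05 and 0.16, and were not called. Glra2 had 6.37, 6.61 and 6.36 in EphA4 knockout arrays and 6.05, 6.04 and 5.91 in wild-type arrays, and rose by 0.44 (SE 0.11, limma adjusted p = 0.599) with all 6 probesets higher. Glra3 had 6.09, 6.19 and 5.93 in EphA4 knockout arrays and 5.62, 5.57 and 5.76 in wild-type arrays, and rose by 0.42 (SE 0.11). The enzymes that make GABA and the transporter that loads both transmitters were not called: Gad2 differed by 0.30 (SE 0.13), Gad1 by 0.19 and Slc32a1 by 0.02. Gphn, the scaffold that holds glycine receptors at the synapse, had 8.48, 8.65 and 8.53 in EphA4 knockout arrays and 8.30, 8.41 and 8.25 in wild-type arrays (0.23, SE 0.10, not called). The median of the list was 0.13, and 0.11 to 0.16 with any 1 array left out.

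Excitatory transmission gave 13 genes above the median, 12 of them above 0 (61.2% of all genes above the median were) and none called. The 4 with an unadjusted limma p under 0.05 were Gria1, Gria2, Grin2a and Camk2a, a kinase of the synapse (0.24). Of all genes above the median, 3.02% were higher at that p. Grin2a, an NMDA receptor subunit, differed most, with 7.05, 6.91 and 6.76 in EphA4 knockout arrays and 6.57, 6.66 and 6.47 in wild-type arrays (0.34, SE 0.11). Gria1 and Gria2, AMPA receptor subunits, differed by 0.30 and 0.26, while Slc17a6, the vesicular transporter of spinal excitatory neurons, differed by 0.11 (SE 0.14). Gria4, the AMPA receptor subunit with the highest level (9.68), differed by −0.05. The called genes outside these lists included some that set neuronal excitability. Cacna2d1, the α2δ-1 calcium channel subunit bound by gabapentin, had 7.65, 7.74 and 7.51 in EphA4 knockout arrays, against 7.23, 7.12 and 7.35 in wild-type arrays, and rose by 0.40 (SE 0.11, limma adjusted p = 0.637) with 33 of 35 probesets higher. Kcnn2, a calcium-activated potassium channel that follows the action potential, had 8.13, 8.19 and 8.03 in EphA4 knockout arrays and 7.86, 7.70 and 7.61 in wild-type arrays (0.39, SE 0.11).

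Further called genes with a neuronal role were Necab1, a calcium-binding protein of spinal interneurons, Rgs8, a brake on G-protein signalling, and Syt14, a synaptotagmin. Necab1 had 7.89, 8.19 and 8.10 in EphA4 knockout arrays and 7.62, 7.50 and 7.74 in wild-type arrays, with all 14 probesets higher (0.44, SE 0.11). Zic1 and Hoxb2, transcription factors that pattern the dorsal cord and the head-to-tail axis, rose by 0.49 (SE 0.13) and 0.45 (SE 0.13). Zic1 had 6.36, 6.37 and 6.65 in EphA4 knockout arrays, against 5.77, 5.99 and 6.14 in wild-type arrays. Transcription factors that define spinal interneuron classes could hardly be read, since 19 of 20 measured were dim, Shox2 and Vsx1 among them.

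Genes shared by neurons of all kinds gave no call, beside 0.468% of all genes above the median called higher and 0.164% lower. Of 19 such pan-neuronal genes, all above the median, 14 lay above 0, and the median was 0.08. Snap25, a synaptic fusion protein, had 11.41, 11.37 and 11.37 in EphA4 knockout arrays, against 11.41, 11.29 and 11.32 in wild-type arrays. Syt1, its calcium sensor, had 9.84, 9.84 and 9.69 in EphA4 knockout arrays and 9.49, 9.51 and 9.49 in wild-type arrays, a gap with no overlap whose size (0.29, SE 0.09) gave an unadjusted limma p of 0.0123. Synaptic vesicle genes had a median of 0.07 over 17 members and firing channel genes of 0.09 over 11, with none called in either.

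Motor neuron and cholinergic genes pointed down, without a call. Of 7 above the median level 5 lay below 0, with a median of −0.26. Slc18a3, the vesicular acetylcholine transporter, had 7.04, 7.53 and 7.07 in EphA4 knockout arrays and 7.79, 8.53 and 7.25 in wild-type arrays (−0.64, SE 0.28, limma adjusted p = 0.787), on 1 probeset. Chodl, a marker of fast motor neurons, had 7.50, 7.89 and 8.38 in EphA4 knockout arrays, against 8.61, 9.16 and 7.74 in wild-type arrays (−0.58, SE 0.33). By array the 7 genes averaged 7.27, 7.51 and 7.50 in the EphA4 knockout and 7.64, 8.18 and 7.34 in the wild-type. Wild-type replicate 2 alone was thus far above the rest, and without it the median was −0.08. With any other array left out the median lay between −0.43 (without wild-type replicate 3) and −0.18 (without EphA4 knockout replicate 1). Chat, which makes acetylcholine, was dim (5.23, 5.28 and 5.10 in EphA4 knockout and 5.53, 5.76 and 5.21 in wild-type arrays).

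Among glial genes above the median level none was called. Of all genes above the median 0.468% were called higher and 0.164% lower, and at such shares lists of this length would often hold none. In sham cords 19 astrocyte genes, all above the median, had a median of −0.04 with 8 above 0. Aqp4, the water channel of astrocyte end-feet, had 9.09, 9.16 and 8.97 in EphA4 knockout arrays and 9.27, 9.07 and 9.09 in wild-type arrays. Gfap, the filament gene that rises when astrocytes react, had 10.74, 10.81 and 10.62 in EphA4 knockout arrays and 10.65, 10.51 and 10.75 in wild-type arrays, a difference of 0.09 (SE 0.11). Vim differed by 0.22 (SE 0.12), and Lcn2 by 0.61 with an SE of 0.34 and overlapping groups.

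Of 22 myelin and oligodendrocyte genes, all above the median, 18 lay below 0. The shift was small, with a median of −0.06, and it was 0.01 without EphA4 knockout replicate 1. Mbp, myelin basic protein, had 9.44, 9.45 and 9.57 in EphA4 knockout arrays, against 9.46, 9.39 and 9.47 in wild-type arrays. Opalin, a late oligodendrocyte gene, differed most (−0.40, SE 0.24); EphA4 knockout replicate 1 stood at 7.73 and the other arrays at 8.54 to 8.85. Among 10 oligodendrocyte precursor genes above the median (median −0.04), Sox10, the lineage's transcription factor, had 7.12, 7.12 and 7.26 in EphA4 knockout arrays and 7.39, 7.53 and 7.34 in wild-type arrays. All 7 of its probesets were lower, yet the difference of −0.26 (SE 0.10) was short of the threshold. Bmp4, a dim member, was called higher (0.37, SE 0.10), as were 0.278% of all dim genes.

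Among immune genes above the median level there was no call either, and many genes of the lists were dim. The shares called among all genes above the median, 0.468% higher and 0.164% lower, would often leave such lists without a call. Of 21 homeostatic microglia genes 11 were above the median, 8 of them above 0, with a median of 0.05. P2ry12, the ADP receptor of resting microglia, had 5.78, 5.95 and 5.96 in EphA4 knockout arrays and 5.77, 5.84 and 5.97 in wild-type arrays. P2ry13, a receptor of the same family, had 5.43, 5.85 and 6.08 in EphA4 knockout arrays, against 6.17, 6.08 and 6.28 in wild-type arrays; these touched without crossing, and the difference of −0.39 (SE 0.16) did not pass. Tyrobp, a signalling adaptor of microglia, had 6.94, 6.98 and 6.96 in EphA4 knockout arrays and 6.54, 6.73 and 6.89 in wild-type arrays (0.24, SE 0.11). All 14 lymphocyte genes measured were dim, and the mean of the list was 3.77, 3.67 and 3.96 in EphA4 knockout and 3.86, 3.78 and 3.90 in wild-type arrays, close to the olfactory receptor floor.

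Irf7, the transcription factor that drives type I interferon, was a called immune gene. It was dim, and 0.278% of all dim genes were called higher. It had 5.08, 4.81 and 5.82 in EphA4 knockout arrays and 4.24, 4.34 and 4.36 in wild-type arrays, and rose by 0.92 (SE 0.22, limma adjusted p = 0.599) with 11 of 12 probesets higher. Only 3 interferon response genes were above the median level, and none was called. Of all 15 measured, 9 lay above 0 and 6 below it, among them Dhx58 (−0.12) and Mx2 (−0.09). Rsad2, an antiviral enzyme, had 7.34, 5.58 and 7.53 in EphA4 knockout arrays and 5.94, 5.89 and 6.57 in wild-type arrays, so that EphA4 knockout replicate 2 was the lowest of all 6. Without that array the Rsad2 difference was 1.30, beside 0.68 with it. Ccl7, a dim chemokine, was called lower (−0.37, SE 0.11), as were 1.78% of all dim genes. None of the 6 cytokine and chemokine genes above the median was called. Il33, an alarmin released by oligodendrocytes and astrocytes, had 9.24, 9.22 and 9.24 in EphA4 knockout arrays, against 9.42, 9.41 and 9.38 in wild-type arrays. The groups of Il33 stood apart by a small and even gap (difference −0.17), whose unadjusted limma p was 0.0840.

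Neutrophil genes varied from mouse to mouse within each genotype. The 4 above the median (S100a8, S100a9, Ngp and Retnlg) averaged 7.84, 6.96 and 5.98 in EphA4 knockout arrays and 6.51, 5.37 and 7.32 in wild-type arrays. Their median difference of 0.52 was 0.06, 0.53 and 0.96 without EphA4 knockout replicates 1, 2 and 3 in turn and 0.58, 0.00 and 0.98 without the wild-type ones, and within extraction batch 2 it was −0.37. Red blood cell genes (Alas2 and Slc4a1) also varied by array, with means of 8.31, 6.96 and 8.41 in EphA4 knockout and 7.29, 6.98 and 7.81 in wild-type arrays. The 7 pericyte, fibroblast and meningeal genes above the median averaged 7.35, 6.08 and 7.06 in EphA4 knockout arrays and 6.01, 6.31 and 6.88 in wild-type arrays. Their median difference was 0.39, with 6 above 0. It was 0.32 without EphA4 knockout replicate 1 and 0.01 without EphA4 knockout replicate 3. Col1a1, the collagen of the meninges, stood at 9.64 in EphA4 knockout replicate 1. It had 5.34 and 6.18 in the other EphA4 knockout arrays and 5.26, 5.57 and 7.04 in wild-type arrays. None of these 7 genes was called, nor any of 10 endothelial genes (median 0.13). The part of blood and meninges in the other differences was not tested.

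**Figure D3:**
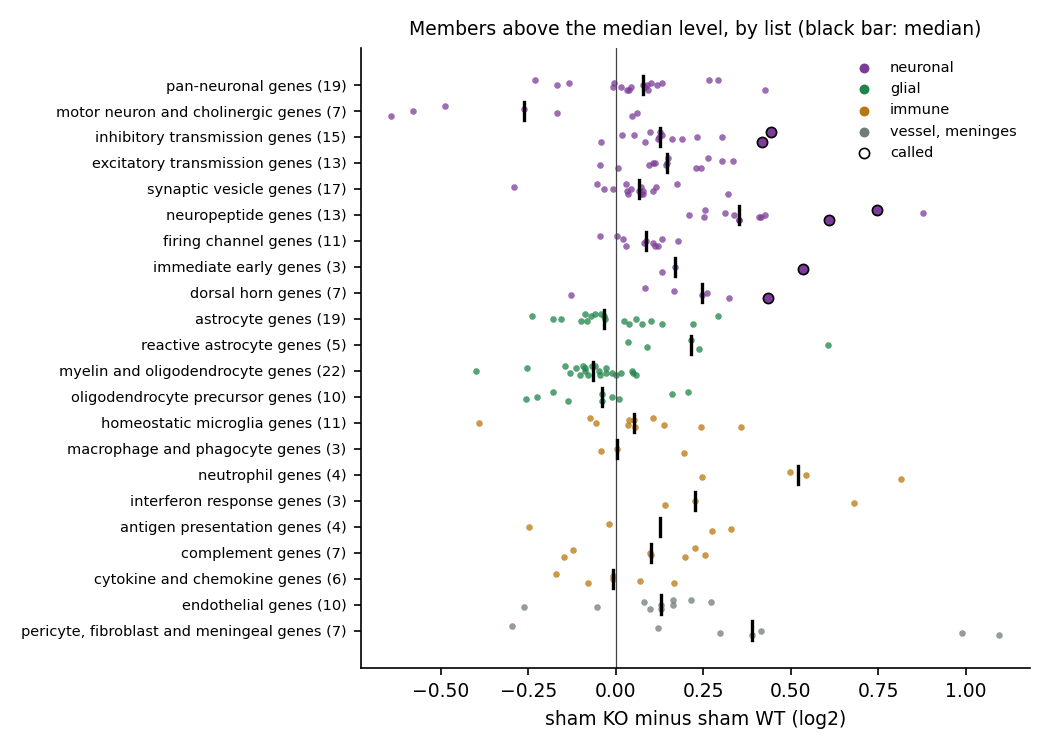
Difference in level, sham EphA4 knockout minus sham wild-type (x axis, log2), of the members above the median level of each list with at least 3 such members; their number is in brackets, a black bar marks the median and a black ring a called gene. Neutrophil genes have a median of 0.52, pericyte, fibroblast and meningeal genes of 0.39 and neuropeptide genes of 0.35. Motor neuron genes have one of −0.26, and astrocyte, myelin and microglial genes lie about 0.

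Called genes outside these groups came from many parts of the cell. Wdfy1, an adaptor of endosomal Toll-like receptor signalling, had 6.97, 7.14 and 7.03 in sham EphA4 knockout arrays, against 6.19, 6.24 and 6.31 in sham wild-type arrays. It rose 1.74-fold (0.80, SE 0.10), with 10 of 13 probesets higher, but the probesets ranged from −1.28 to 2.79, on both sides of 0. Timm8b, a carrier chaperone between the mitochondrial membranes, had 9.69, 9.60 and 9.61 in EphA4 knockout arrays and 9.12, 9.13 and 9.20 in wild-type arrays (0.48, SE 0.09, limma adjusted p = 0.401). Pdia3, which folds disulfide-bonded proteins in the endoplasmic reticulum, had 10.17, 10.37 and 10.29 in EphA4 knockout arrays and 9.89, 9.78 and 9.87 in wild-type arrays, with all 14 probesets higher (0.43, SE 0.10).

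Frzb, a secreted Wnt antagonist, and Ccn2, a matrix growth factor, rose by 0.48 (SE 0.15) and 0.45 (SE 0.13). Bex1, a small signalling protein of neurons, stood at 9.92, 9.91 and 9.95 in EphA4 knockout arrays and at 9.06, 9.60 and 9.50 in wild-type arrays (0.54, SE 0.14). Ube2c, a ubiquitin-conjugating enzyme of mitosis, was called higher (0.72, SE 0.22) although its groups overlapped. The largest increase among called genes above the median level, that of the clone-named gene 9030025P20Rik (0.99, SE 0.15), rested on 1 probeset, as did those of Tnrc6c and Rmnd1.

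Among called genes above the median level, Dbi fell most after Epha4. It encodes the acyl-CoA binding protein, whose cleaved peptides act on GABA-A receptors, and it had 9.80, 10.56 and 10.11 in EphA4 knockout arrays, against 10.94, 11.07 and 11.26 in wild-type arrays. All 4 probesets were lower, the difference was −0.94 (SE 0.18, limma adjusted p = 0.432), and without EphA4 knockout replicate 2 it was −1.14. Cops8, a subunit of the COP9 signalosome, had 7.93, 8.25 and 8.26 in EphA4 knockout arrays and 8.71, 8.81 and 8.57 in wild-type arrays (−0.55, SE 0.12), with 8 of 11 probesets lower. St8sia4, which adds polysialic acid to the neural cell adhesion molecule, had 5.84, 5.82 and 5.77 in EphA4 knockout arrays, against 6.07, 6.20 and 6.12 in wild-type arrays, and fell by 0.32 (SE 0.09). Sgpp2, a phosphatase of sphingosine-1-phosphate, had 7.85, 7.86 and 7.86 in EphA4 knockout arrays and 8.15, 8.21 and 8.16 in wild-type arrays (−0.31, SE 0.09).

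Genes of RNA handling and protein synthesis were on both sides. Alyref, which hands messenger RNA to its export receptor, had 7.13, 7.23 and 7.23 in EphA4 knockout arrays and 7.64, 7.47 and 7.67 in wild-type arrays, and fell by 0.39 (SE 0.10). That receptor, Nxf1, had 8.38, 8.28 and 8.37 in EphA4 knockout arrays and 8.07, 7.97 and 7.97 in wild-type arrays, and rose by 0.34 (SE 0.09). Of the mitochondrial ribosome proteins called, Mrps28 fell by 0.47 (SE 0.12) and Mrps5 rose by 0.34 (SE 0.10). Snhg5 (−0.59), Set (−0.38), Clmn (−0.36) and Trdmt1 (−0.34) were also called lower. Olfr1502 (−0.85), an olfactory receptor above the median level, and Tbc1d8b (−0.71), whose groups overlapped, were each read by 1 probeset.

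**Figure D4:**
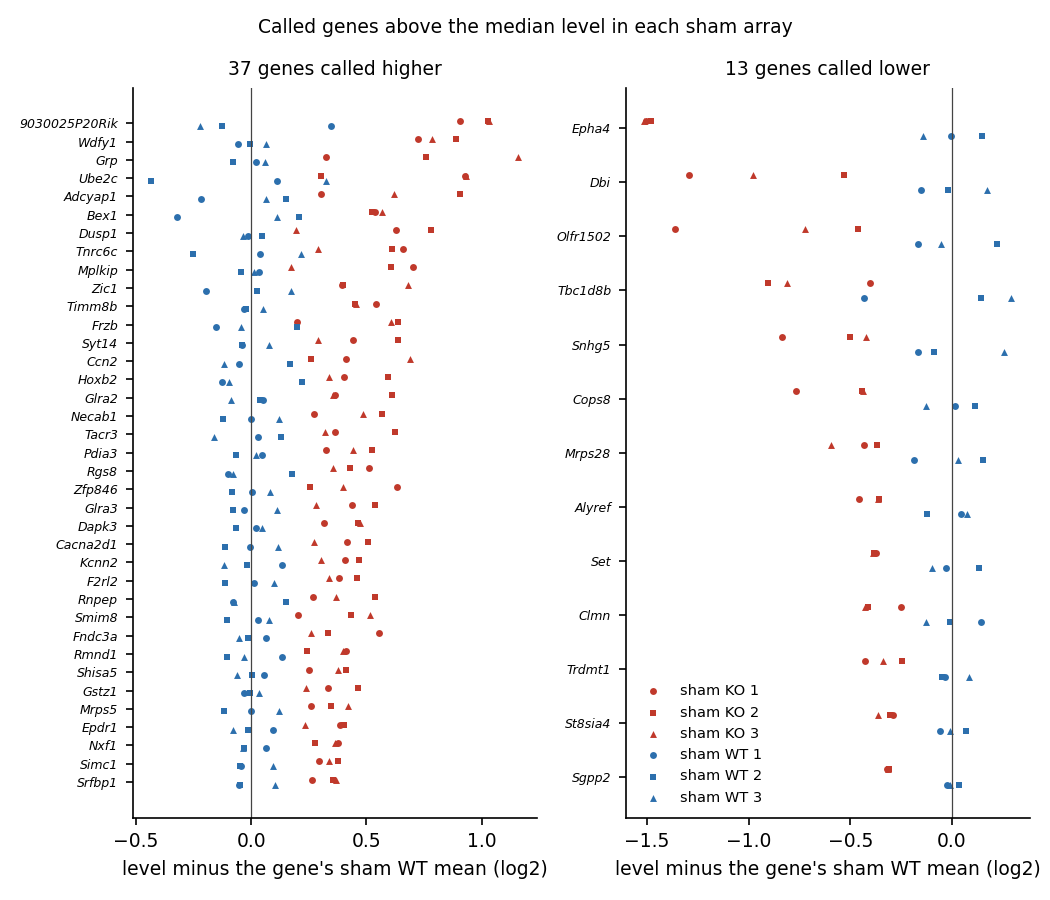
Level of each of the 50 called genes above the median in every sham array, minus that gene's sham wild-type mean (x axis, log2), with EphA4 knockout arrays in red above wild-type arrays in blue and circles, squares and triangles for replicates 1, 2 and 3. In 36 of the 37 genes called higher and 12 of the 13 called lower the colours do not overlap; Ube2c and Tbc1d8b are the exceptions.

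Chromosome 1, which carries Epha4, held 9 of the 50 called genes (18%) and 458 of the 7904 genes above the median (5.79%). Besides Epha4 they were Wdfy1, Syt14, Rgs8 and Rnpep, all higher, and Dbi, Cops8, St8sia4 and Sgpp2, all lower. In the order of the 1204 protein-coding genes of that chromosome in GRCm38.p6, Sgpp2 lay 3 genes and Wdfy1 11 genes from Epha4, then Cops8 at 104, St8sia4 at 167, Dbi at 220, Rnpep at 333, Rgs8 at 413 and Syt14 at 777.

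The injured cords, which share no array with the sham cords, gave a second reading of the same genotypes. Of the 37 genes called higher in sham EphA4 knockout cords, 21 were also above 0 after injury (56.8%, beside 43.5% of all genes above the median). Of the 13 called lower, 11 were below 0 (84.6%, beside 56.5%), with Epha4, the targeted gene, counted in both numbers. Epha4, Wdfy1 and Rmnd1 were called in the same direction in both. Epha4 had 4.82, 4.86 and 5.10 in injured EphA4 knockout arrays and 5.87, 6.25 and 6.11 in injured wild-type arrays (−1.15), and Wdfy1 had 7.03, 7.09 and 7.05 in injured EphA4 knockout arrays and 6.66, 6.22 and 6.59 in injured wild-type arrays (0.56). Rmnd1, needed for mitochondrial translation, differed by 0.35 (SE 0.11) in sham cords and by 1.12 after injury.

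Neuropeptide genes had no positive median after injury. Over the same 13 genes the injured EphA4 knockout minus wild-type median was −0.09. Cck (0.20), Npff (0.16) and Nmu (0.05) lay above 0 and the other 10 below it, the lowest being Tac1 at −0.39, Npy at −0.43, Crh at −0.49 and Grp at −0.60. In a fit over all 12 arrays 8 of the 50 called genes had an unadjusted p under 0.01 for the difference between the genotype effects, a count raised by the choice of these genes for their sham effect, which is 1 side of that difference. None passed an adjusted p of 0.05 in limma, the smallest being 0.110 for Timm8b. Glra2, Glra3, Cacna2d1, Tacr3 and Pdia3 had injured differences between −0.05 and 0.09.

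**Figure D5:**
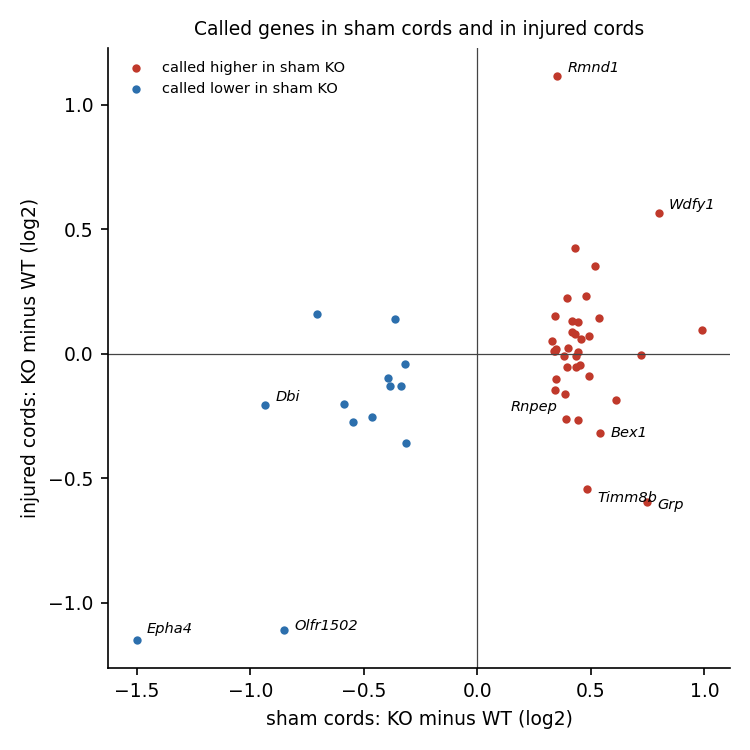
Difference in level, EphA4 knockout minus wild-type (log2), in sham cords (x axis) and in injured cords (y axis) for the 50 genes called in sham cords above the median level. Epha4 (−1.50 and −1.15), Wdfy1 (0.80 and 0.56) and Rmnd1 (0.35 and 1.12) lie on 1 side of 0 in both, and Grp (0.75 and −0.60) and Timm8b (0.48 and −0.55) on opposite sides.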

How the data were processed

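The authors hybridised 1 Mouse Exon 1.0 ST array per mouse and normalized the arrays by RMA in Partek Genomics Suite 6.5, and deposited log2 values for 194262 core probesets, with mm9 in the submitters' processing notes. All 12 columns were mapped to mice by the labels (0 without a sample). The methods and the labels differ on the RNA amount, the ages and whether the left tissue is called injured or uninjured; groups rest on genotype, treatment and replicate.

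Probesets naming 1 gene (179614) were averaged by gene, and those naming several (1331) or none (13317) left out. Genes have a median of 9 probesets, 804 of them 1. Of the symbols 13745 are current in GRCm38.p6, 2046 were updated through a synonym and 39 found no match. The sham arrays were fitted in R 4.3.3 with limma 3.58.1 over all genes, with Benjamini-Hochberg adjustment (helper packages were statmod 1.5.0 and data.table, version 1.17.8), and so were the injured arrays; an interaction term was fitted over all 12. Mice were separate animals; the number of arrays limits the precision, and an exact permutation test of 3 against 3 cannot go below p = 0.10.

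Named genes are Epha4, the 10 largest changes each way among called genes whose groups do not overlap, in each of 31 lists the called members, up to 3 with the smallest p and the first 3, and 5 dim genes; others were named with their values in view. Members and lists were chosen with earlier results of these data known, and the dorsal horn list after values were seen. Other settings tried were the methods' t-test, as their analysis of variance by genotype amounts to with 1 pair of groups, a fit of all 12 arrays, the median of probesets, other scalings, an intensity trend, sex, extraction batch or replicate number in the model, an adjusted p, no filter on dim genes, and leaving out each array; sex by Y-linked genes was added after seeing the data. The steps were tested on simulated data. Enrichment results and histology were not analysed here.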

Additional observations from a re-analysis of the deposited data

Results flagged for a closer look

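Grp, Timm8b and Rnpep, all called higher in sham cords, were singled out for a closer look. In each of the 3, all EphA4 knockout arrays lay above all wild-type arrays in sham cords and below them in injured cords. How many of all genes did so was not counted. Grp, the gastrin-releasing peptide, had 6.16, 6.59 and 6.99 in sham EphA4 knockout and 5.85, 5.75 and 5.89 in sham wild-type arrays, and 5.02, 5.51 and 5.53 in injured EphA4 knockout and 6.24, 5.74 and 5.87 in injured wild-type arrays. The genotype effect after injury minus that in sham cords was −1.34 (limma adjusted p = 0.820). Timm8b, a mitochondrial chaperone, had 9.69, 9.60 and 9.61 in sham EphA4 knockout and 9.12, 9.13 and 9.20 in sham wild-type arrays, and 8.66, 8.99 and 8.74 in injured EphA4 knockout and 9.38, 9.37 and 9.27 in injured wild-type arrays, a difference between the effects of −1.03 (limma adjusted p = 0.110). For Rnpep, aminopeptidase B, that difference was −0.65 (limma adjusted p = 0.826), with 7.91, 7.80 and 7.81 in injured EphA4 knockout and 8.06, 8.02 and 8.24 in injured wild-type arrays. None of the 3 passed an adjusted p of 0.05.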

How the results depend on the processing

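In 48 of the 50 genes called above the median level the groups do not overlap, so that the choice of genes fixed their sign when arrays were left out. For the 49 apart from Epha4 the call stood in 475 of 882 combinations of gene and alternative and was lost in 407. Epha4 stayed lower at a log2 difference of −1.57 to −1.20; its limma adjusted p was 0.00232, and 0.128 with extraction batch as a fixed term, 0.207 by the methods' t-test and 0.367 with the median of probesets. The number called higher, 37, became 18 by the methods' t-test, 59 with dim genes included and 0 with an adjusted p. The number called lower, 13, became 6 with all 12 arrays in 1 fit, 22 with arrays centred on their medians, 25 with quantiles normalized again, 7 with batch fixed, 154 with dim genes included and 1 with an adjusted p. Leaving out 1 array gave 22 to 40 higher and 10 to 31 lower, with 22 and 24 without EphA4 knockout replicate 2 and 27 and 31 without wild-type replicate 1. With sex taken from the Y-linked genes, chosen after seeing the data, 27 were higher and 12 lower. Of the 50 calls 26 then stood. By the methods' t-test 18 stood, with the median of probesets 15, with batch fixed 17 and with an intensity trend 50.

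Replicate numbers did not pair the arrays: the deviations of same-numbered arrays from their group means correlated at 0.05, 0.05 and 0.00. With replicate number as a block, 38 genes were called higher and 15 lower, and the limma adjusted p of Epha4 was 0.0607.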
